A study of Mus musculus with 6 samples.

Results

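The genes described here encode the enzymes and receptors of the leukotriene and prostaglandin pathways, namely Alox5, Alox5ap, Ltc4s, Lta4h, Ptgs1, Ptgs2, Ptges3, Ptger2 and Ptger4. These 9 genes, of 26216 gene names in the files, were chosen by symbol with the comparison of the genotypes already known, so that their differences between the genotypes are given as a description and without a test. RNA-seq was performed on LT/ST-HSCs, stem cells of the bone marrow that were sorted as lineage-negative LSKs without Annexin-V and CD48 and with CD150. The cells came from mixed chimeras at week 6, in which lethally irradiated Ly5.1/Ly5.2 mice had received BM LSKs of Ltbr-/- (CD45.2) donors together with BM LSKs of Ly5.1 (CD45.1) donors. Both genotypes had thus passed through irradiated hosts and a transplantation, and Ly5.1 cells, with an intact Ltbr, were the control. Each genotype had 3 replicates, and cells of different chimeras were pooled for them. Donors were 13, 10 and 10 to 13 weeks old for Ltbr-/- replicates 1, 2 and 3, and 7 to 13 weeks old for each Ly5.1 replicate, and donor age was therefore partly tied to genotype. The Ltbr-/- donors lack the lymphotoxin beta receptor in all cells and not in HSCs alone, and they also differ from the controls in the CD45 allele.

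Arachidonic acid is freed from membranes by phospholipases and then enters separate branches. In the leukotriene branch, 5-lipoxygenase (Alox5), helped by its membrane partner FLAP (Alox5ap), makes leukotriene A4, which Lta4h converts to the chemoattractant leukotriene B4 and Ltc4s to the cysteinyl leukotriene C4. In the prostaglandin branch, the cyclooxygenases Ptgs1 and Ptgs2 make prostaglandin H2, prostaglandin E2 is formed from it by synthases such as Ptges3, and cells sense it through receptors such as Ptger2 and Ptger4, which raise cAMP. Prostaglandin E2 is known for its effects on the homing and survival of HSCs, and leukotriene enzymes are best known from mast cells and other myeloid cells.

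Alox5 was about 2.13-fold higher in Ltbr-/- than in Ly5.1 LT/ST-HSCs, and the other 8 genes of the set differed by less than 1.5-fold. Outside the set, the gene with the profile nearest to Alox5 was Mgst2, a microsomal glutathione transferase that can also make leukotriene C4 and that was higher by nearly the same factor. Alox5 and Mgst2 lie on different chromosomes, Alox5 at chr6:116410071-116461178 and Mgst2 at chr3:51636912-51682675 (GRCm38.p6). Whether these genes share any regulation was not tested. For each, the 250 bases before the transcription start that RefSeq (GRCm38.p6) tabulates are shown 5′ to 3′ on the strand of the gene. For Alox5 they are chr6:116461179-116461428 on the minus strand, and for Mgst2 chr3:51660929-51661178 on the plus strand, ending at a start inside the span of the gene. Capitals mark matches on either strand. The motifs searched were the GC box (GGGCGG), the box spelled CCAAT, the usual form of the TATA box (TATAAA), the core of the hypoxia response element (ACGTG) and the NF-kB site.
Alox5: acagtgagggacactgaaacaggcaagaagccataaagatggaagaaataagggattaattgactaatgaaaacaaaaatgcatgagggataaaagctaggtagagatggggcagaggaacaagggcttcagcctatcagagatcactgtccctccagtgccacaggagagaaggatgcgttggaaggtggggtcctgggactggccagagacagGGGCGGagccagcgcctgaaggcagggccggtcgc
Mgst2: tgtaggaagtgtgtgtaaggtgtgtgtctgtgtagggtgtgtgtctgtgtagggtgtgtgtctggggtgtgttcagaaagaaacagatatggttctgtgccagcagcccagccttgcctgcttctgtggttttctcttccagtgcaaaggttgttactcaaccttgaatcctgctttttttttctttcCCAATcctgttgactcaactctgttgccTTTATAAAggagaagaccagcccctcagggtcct

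The upstream sequence of Alox5 had a single match, a GC box that begins 35 bases before the start. In Mgst2, a CCAAT box began at position -62, and matches to the TATA box on both strands overlapped at positions -34 and -32. Over windows from 250 bases before to 50 after the start, the GC content was 55.7% with 7 CpG for Alox5 and 46.3% with 0 CpG for Mgst2, against medians of 52.7% and 7 over 32851 tabulated windows. The 2 genes thus had no motif in common among those searched. A GC box was found in 35.7% of all windows, a CCAAT box in 37.4%, a TATA box in 13.6%, the hypoxia core in 19.6% and an NF-kB site in 4.51%. Of the 9 chosen genes, 8 had a tabulated window, and none of these 8 windows held a match to the NF-kB motif. A match is a run of letters and no evidence of binding.

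Expression is given as the deposited signal, a normalised value that is not divided by transcript length. It was taken from the values to be 2 to the power of the regularized logarithm (rlog). The rlog pulls low genes toward their mean, which makes differences of low genes smaller. The read depth cannot be seen in these values, and the number of replicates limits the precision. Ltbr itself, the targeted gene, had a signal of 24.2, 26.4 and 23.1 in the 3 Ltbr-/- samples, against 564, 549 and 522 in Ly5.1 samples. It fell by 4.47 on the log2 scale (SE 0.08; limma, adjusted p = 2.15e-32), the direction the labels give. All 12 markers of HSCs that were examined were above the expression filter, among them Kit with 5179 to 6103. Of 9 genes of stroma and endothelium, 5 were above it, among them Pecam1 with 697 to 1147 and Pdgfrb with 193 to 253. The stromal genes Lepr and Dcn stood at 1 in every sample, the value of genes that do not vary. RNA of maturing myeloid cells was also present, with a signal of 9949 to 14909 for the neutrophil protein S100a9.

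Alox5 had a signal of 1632, 1806 and 1845 in Ltbr-/- samples and of only 835, 891 and 756 in Ly5.1 samples. Every Ltbr-/- sample was thus above every Ly5.1 sample, with a wide gap between the groups. The means were 1761 ± 113 and 827 ± 67.6 (SD, n = 3 each), a log2 difference of 1.09 (SE 0.09). Of 13108 tested genes, 17 including Alox5 had a log2 difference at least as large. The Ltbr-/- replicate with donors of 13 weeks was the lowest of the 3 and the one with donors of 10 weeks lay between the others; the part of donor age was not tested.

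Alox5ap, whose protein presents arachidonic acid to 5-lipoxygenase, had 2177, 2252 and 2274 in Ltbr-/- and 2050, 2039 and 2040 in Ly5.1 samples. These groups did not overlap either, but they lay close together, with means of 2234 ± 50.6 and 2043 ± 5.86 and a log2 difference of 0.13 (SE 0.08). The ratio of Alox5 to Alox5ap signal was accordingly 0.788 ± 0.0333 in Ltbr-/- and 0.405 ± 0.0331 in Ly5.1 samples.

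The enzymes that use leukotriene A4 did not separate the genotypes. Lta4h, the leukotriene A4 hydrolase, had 5495, 5120 and 5347 in Ltbr-/- and 5312, 5029 and 5178 in Ly5.1 samples, with overlapping groups and a log2 difference of 0.04 (SE 0.07) that was -0.13 after quantile normalization. It was the most highly expressed of the 9 genes. Ltc4s, the leukotriene C4 synthase, had 51.8, 49.1 and 47.3 against 50.6, 48.6 and 50.9, a log2 difference of -0.02 (SE 0.06). Its signal was low in all samples, and that of Mgst2 exceeded it 50.5 ± 4.75 times in Ltbr-/- and 23.7 ± 0.445 times in Ly5.1 samples, a ratio of signals that takes no account of transcript length.

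Among the chosen genes of the prostaglandin branch, the groups of every gene overlapped. Ptgs1, the constitutive cyclooxygenase, had 1466, 1454 and 1315 in Ltbr-/- and 1341, 1428 and 1525 in Ly5.1 samples, a log2 difference of -0.02 (SE 0.09). Ptgs2, the inducible cyclooxygenase, had 32.0, 33.0 and 29.8 against 34.8, 33.9 and 32.5, a log2 difference of -0.09 (SE 0.05). The signal of Ptgs1 was 44.7 ± 1.02 times that of Ptgs2 in Ltbr-/- and 42.6 ± 4.23 times in Ly5.1 samples. Per kilobase of transcript, Ptgs1 was likewise far above Ptgs2 in both genotypes.

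Ptges3, a prostaglandin E synthase that is also the Hsp90 cochaperone p23, had 63.0, 70.6 and 62.9 in Ltbr-/- and 60.4, 69.8 and 61.3 in Ly5.1 samples, a log2 difference of 0.04 (SE 0.07). Of the 1925 stretches of read length in its longest coding transcript, 21.2% also occurred in the pseudogenes Ptges3-ps and Gm11893, so that its value is uncertain. For the other 8 genes this share was at most 4.82%. The prostaglandin E2 receptor Ptger4 had 181, 207 and 212 against 215, 193 and 233, a log2 difference of -0.09 (SE 0.10). The receptor Ptger2 had 5.04 to 5.17 in Ltbr-/- and 5.04 to 5.21 in Ly5.1 samples, below the lowest mean of 14.4 that was tested, so that a difference could not be seen at this level.

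**Figure D1:**
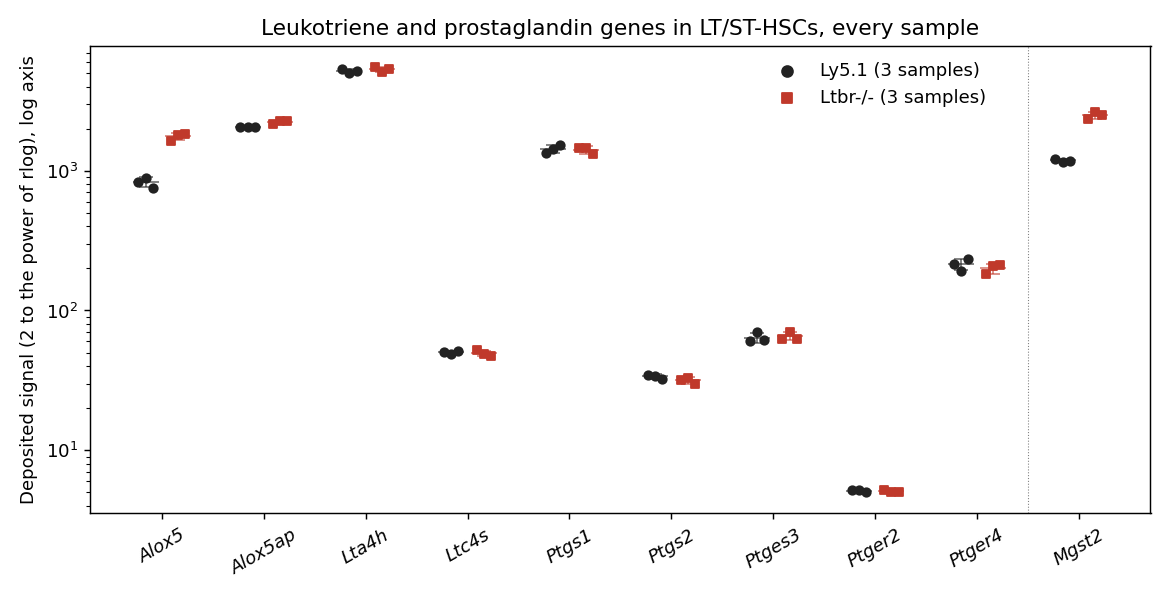
Deposited signal on a log axis for each of the 9 chosen genes and, right of the dotted line, Mgst2, with a point for each sample and bars for the mean ± SD of 3 samples per genotype. Alox5 and Mgst2 are the genes whose Ltbr-/- points (squares) stand well above the Ly5.1 points (circles), Alox5ap shows a narrow gap, and the other genes overlap.

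Of the 9 genes, 8 were tested in the fit across all genes, and 1, Alox5, passed both thresholds of the study (an adjusted p below 0.05 together with a change of 1.5-fold or more), as did 2.78% of all 13108 tested genes. By the adjusted p alone it was again Alox5 only, against 14.8% of all tested genes. The groups did not overlap for 2 of the 9 genes, Alox5 and Alox5ap, and for 30.4% of all tested genes. The log2 difference was above 0 for 4 of the 8 tested genes and below 0 for the other 4, with a median of 0.01 against -0.01 over all tested genes. Since the genes were selected on this comparison, nothing about the set is read from these counts.

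Levels can be compared between genes only per length. Per kilobase of the longest coding transcript, the signal in Ly5.1 samples fell in the order Lta4h (2550 ± 69.6), Alox5ap (1633 ± 4.68), Ptgs1 (499 ± 32.2), Alox5 (293 ± 23.9), Ltc4s (69.9 ± 1.75), Ptger4 (64.5 ± 6.14), Ptges3 (31.9 ± 2.60), Ptgs2 (7.57 ± 0.262) and Ptger2 (1.39 ± 0.0243). Ltc4s and Ptger4 lay within the spread of Ptger4 and cannot be ordered, whereas all other neighbours differed by more than their SDs. These SDs do not measure the effect of the stretches that Ptges3 shares with pseudogenes, so that its place in the order is uncertain. In Ltbr-/- samples, Alox5 reached 624 ± 40.2 per kilobase and changed places with Ptgs1, which had 492 ± 29.3. The ratio of Alox5 to Ptgs1 signal was 1.25 ± 0.145 in Ltbr-/- and 0.581 ± 0.0735 in Ly5.1 samples, and its 3 values in each genotype did not overlap.

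The other genes of eicosanoid metabolism were taken from 7 lists that hold 57 genes, of which 56 were in the files, 37 were tested and 1, Mgst2, passed both thresholds (2.70%). By the adjusted p alone, 8 were higher and 1 was lower in Ltbr-/- cells, together 24.3% of those tested, against 14.8% of all tested genes. The 7 lists were selected with earlier results of these data known, so that nothing about a list is read from such shares. Mgst2 had 2331, 2622 and 2512 in Ltbr-/- and 1217, 1159 and 1180 in Ly5.1 samples. All Ltbr-/- samples were above all Ly5.1 samples, and Mgst2 rose by 1.07 on the log2 scale (SE 0.08; limma, adjusted p = 6.61e-13). A single-gene exact permutation test gave p = 0.1, the smallest that 3 against 3 samples allow. Mgst2 also stands among the genes that the study itself picked from these samples, so that its direction is not independent evidence.

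**Figure D2:**
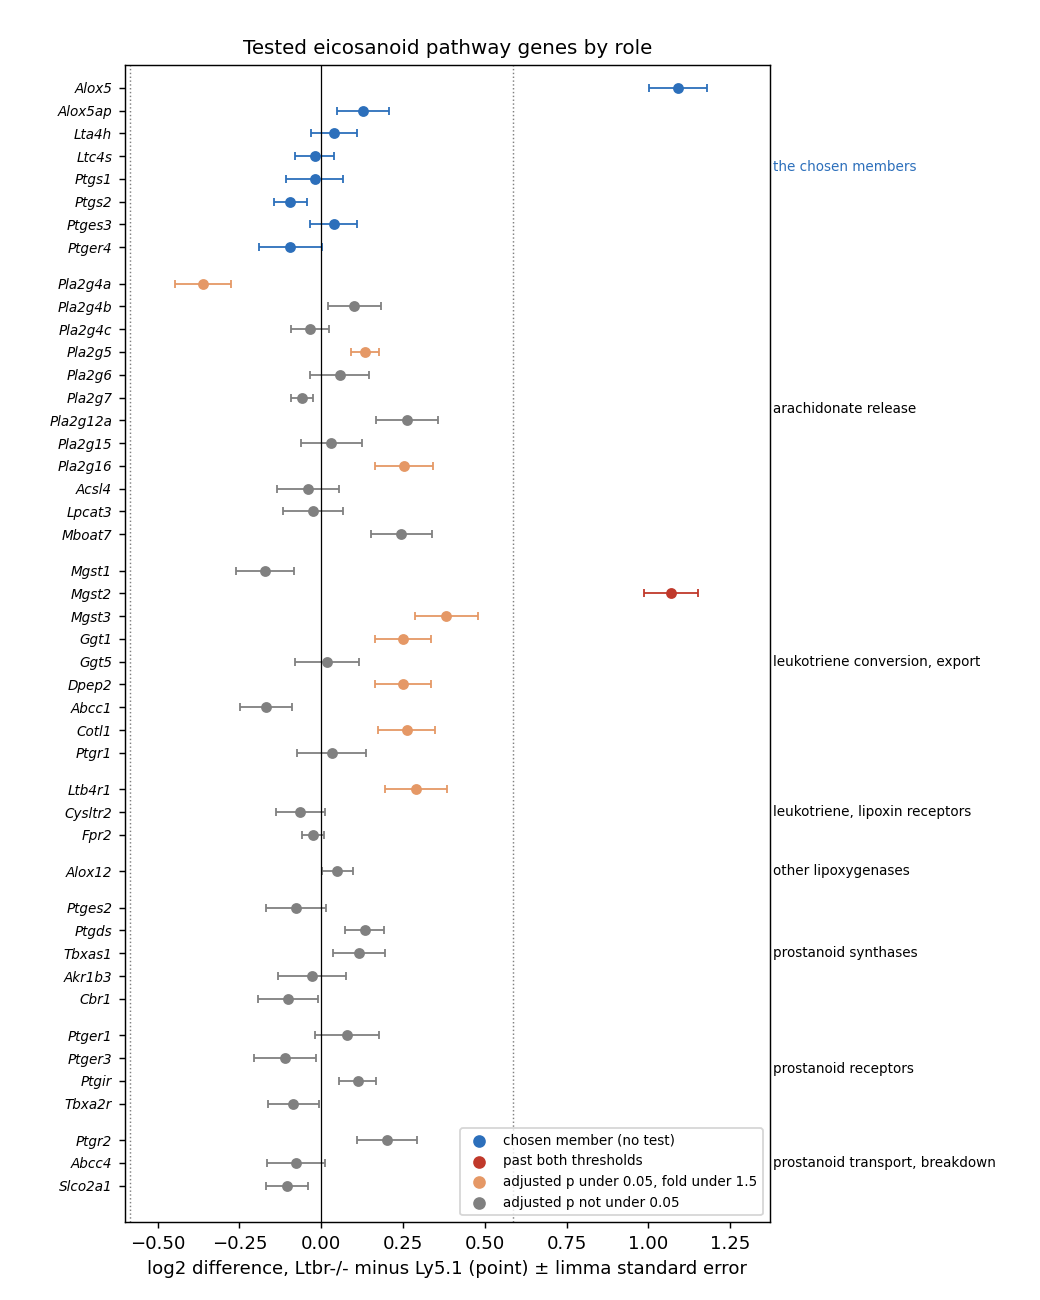
Log2 difference of Ltbr-/- minus Ly5.1 samples (point) with its limma standard error (bar) for the 8 tested chosen genes and the 37 other tested eicosanoid genes, grouped by role; dotted lines mark a fold of 1.5. Alox5 at 1.09 and Mgst2 at 1.07 stand apart from the other genes, and Pla2g4a at -0.36 is the lowest.

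Of the 9 tested genes of leukotriene conversion and export, 5 were higher by the adjusted p, as were 10.6% of all tested genes, none was lower, and the median log2 difference was 0.25. The count was 2 without Ltbr-/- replicate 1, Ltbr-/- replicate 3 or Ly5.1 replicate 3, and 2 without the filter on low values. Besides Mgst2 these were Mgst3, a related glutathione transferase, Ggt1 and Dpep2, which trim leukotriene C4 to leukotrienes D4 and E4, and Cotl1, a binding partner of 5-lipoxygenase. Mgst3 had 234, 262 and 245 in Ltbr-/- and 207, 198 and 165 in Ly5.1 samples, and rose by 0.38 (SE 0.10; limma, adjusted p = 0.00458). Ggt1, Dpep2 and Cotl1 rose by 0.25, 0.25 and 0.26 (limma, adjusted p = 0.044, 0.045 and 0.0393), all under the fold of 1.5, and each lost its call when any of 4 or 5 of the 6 libraries was left out (adjusted p = 0.0598 to 0.261). The leukotriene exporter Abcc1 had a log2 difference of -0.17 (adjusted p = 0.163 by limma) and Mgst1 one of -0.17 (adjusted p = 0.206 by limma). Mgst3 did not pass without Ly5.1 replicate 3 (adjusted p = 0.0537 by limma), and without single libraries the number of higher genes over the 7 lists was 2 to 6, with 2 when Ltbr-/- replicate 3 was left out.

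Upstream of both branches, Pla2g4a was lower. This cytosolic phospholipase A2, which frees arachidonic acid, had 1630, 1642 and 1423 in Ltbr-/- and 2154, 1876 and 2001 in Ly5.1 samples. The groups did not overlap, and Pla2g4a fell by 0.36 on the log2 scale (SE 0.09; limma, adjusted p = 0.00237), a fold under 1.5. It kept an adjusted p under 0.05 under every alternative run, with log2 differences from -0.41 to -0.30. Of the 12 tested genes of arachidonate release and recycling, Pla2g5 and Pla2g16 were higher by 0.13 and 0.25 (limma, adjusted p = 0.0302 and 0.0458), and the median of the list was 0.04. Neither passed without Ltbr-/- replicate 3, without Ly5.1 replicate 1 or 2, or without the filter on low values (adjusted p up to 0.221 for Pla2g5 and 0.14 for Pla2g16). Pla2g4a at chr1:149829618-149961290 is a neighbour of Ptgs2 at chr1:150100031-150108234. Both lie nearly 12 Mb, at 11.654 and 11.924 Mb, from Ptprc, the CD45 gene that differs between the donors, outside the window of 10 Mb examined around it. How far the sequence that differs around Ptprc extends is not given. For Pla2g4a, the absence of the receptor and an allele linked to Ptprc can therefore not be told apart.

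Among receptors for leukotrienes and lipoxins, 3 of 8 were tested. The leukotriene B4 receptor Ltb4r1 had 321, 318 and 324 in Ltbr-/- and 245, 250 and 297 in Ly5.1 samples, a difference of 0.29 (limma, adjusted p = 0.0353) that was lost when any of 5 of the 6 libraries was left out (adjusted p = 0.0719 to 0.1525). The cysteinyl leukotriene receptor Cysltr2 was detected at 67.5 to 80.3 with a log2 difference of -0.06 (adjusted p = 0.637 by limma), whereas Cysltr1 stood at 1.27 to 1.30 and Oxgr1 and Gpr17 at 1 in all samples. Of the other lipoxygenases, Alox12 alone was tested (0.05; adjusted p = 0.545 by limma), and Alox15 had only 12.3 to 13.7.

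None of the 12 tested genes of the remaining prostanoid lists passed the adjusted threshold in limma, and 2 had an unadjusted p under 0.05. The groups did not overlap for 4 of the 12, and for 30.4% of all tested genes. The thromboxane synthase Tbxas1 had 2166 to 2466, with a log2 difference of 0.11 (adjusted p = 0.37). The prostaglandin D synthase Ptgds had 0.13 (adjusted p = 0.142), and 0.22 (adjusted p = 0.0156) without Ltbr-/- replicate 1, which was the lowest of its group. Among the receptors, the prostacyclin receptor Ptgir had 0.11 (adjusted p = 0.187) and the prostaglandin E2 receptor Ptger3 -0.11 (adjusted p = 0.487). Ptgr2, which breaks prostaglandins down, had 0.20 (adjusted p = 0.139). The inducible synthase Ptges (6.83 to 7.25) and the degrading enzyme Hpgd (4.73 to 4.91) were too low to be tested.

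Downstream of the prostaglandin E2 receptors, 16 genes of cAMP signalling were all tested, and their median was -0.06, with none past both thresholds. The adenylyl cyclases Adcy7 and Adcy6 fell by 0.36 and 0.28 (limma, adjusted p = 0.00154 and 0.0317). Adcy6 did not pass without Ltbr-/- replicate 2 or 3, without Ly5.1 replicate 1 (adjusted p = 0.122 to 0.167) or without the filter on low values. Gnas, the stimulatory G protein subunit, rose by 0.48 (limma, adjusted p = 5.53e-08), but its difference was 0.06 (adjusted p = 0.402) after quantile normalization. The genes named as responders to prostaglandin E2 in HSCs did not pass, though 1 had an unadjusted p under 0.05, with log2 differences of -0.19 for Cxcr4, 0.07 for Birc5 and 0.03 for Ccnd1 (limma, adjusted p = 0.14, 0.702 and 0.88). Of 10 Hsp90 partners of p23, Cdc37 had the largest difference, 0.23 (limma, adjusted p = 0.0216), which was 0.08 (adjusted p = 0.433) after quantile normalization and also did not pass without any of 4 of the 6 libraries.

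The tested genes whose profile over the 6 samples, centred on its own mean, was nearest to that of Alox5 were Mgst2 (Euclidean distance 0.201, Pearson r = 0.99), the calcium channel gene Cacna1f (0.225), the glycolytic gene Pgk1 (0.250), the secreted phosphoprotein gene Spp1 (0.261) and Fam162a (0.285). Such a profile is mostly the difference between the genotypes, and the 6 samples are too few to tell these genes apart by anything else. All 5 had log2 differences between 1.07 and 1.11. The ratio of Alox5 to Mgst2 signal was 0.708 ± 0.0239 in Ltbr-/- and 0.699 ± 0.0647 in Ly5.1 samples, which follows from the likeness by which Mgst2 was found. By the same measure, Alox5ap ranked 2336 and Ptgs1 7431 among the tested genes, and the genes nearest to Ptgs1 were Gphn, Slain1, Ap1g1, Zfp442 and Ccdc43, with log2 differences from -0.06 to -0.02.

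**Figure D3:**
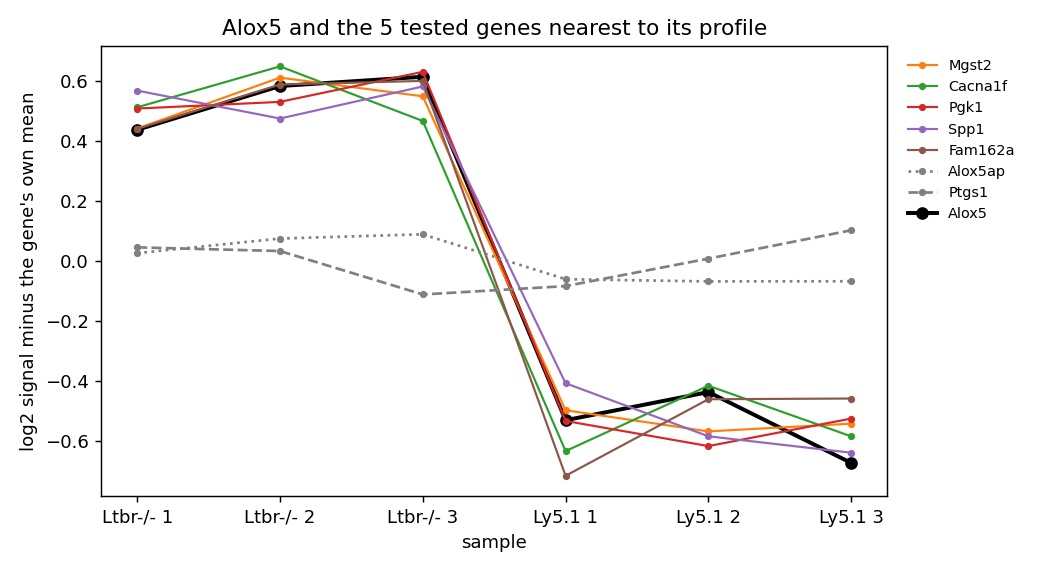
Log2 signal minus the mean of the gene over the 6 samples for Alox5 (thick black line), the 5 tested genes nearest to its profile (coloured lines), Alox5ap (dotted) and Ptgs1 (dashed); lines join the values of a gene and replicates have no order. The 5 nearest genes lie with Alox5 above 0 in the Ltbr-/- and below 0 in the Ly5.1 samples but differ from it in order within a genotype, Alox5ap takes a small step between the genotypes, and Ptgs1 varies around 0.

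Alox5 lies on chromosome 6, 8.845 Mb from Ltbr at chr6:125306571-125313885, and it is the single gene of the 9 on that chromosome. The targeted Ltbr allele can carry linked sequence of the strain in which it was made, and for Alox5 the absence of the receptor and a linked allele cannot be told apart in this design. Within 10 Mb on each side of Ltbr, 11 of 156 tested genes passed both thresholds (7.05%), and without Alox5 10 of 155 did (6.45%). All 11 were higher, as were 356 of the 364 genes past both thresholds over all tested genes. They lay on the side of Alox5, where most of the tested genes of the window also lie. On the whole chromosome 22 genes were higher and 2 lower of 631 (3.80%), against 2.78% of all tested genes. By the adjusted p alone, the share in the window was 14.7%, close to the 14.8% of all tested genes.

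Within 1 Mb of Alox5, a distance chosen after its values were seen, 17 other genes were tested, with a median log2 difference of -0.04 and a range from -0.24 to 0.94. Among these, the ribosomal protein gene Rpl32 and the predicted gene Gm8213 passed both thresholds, at 0.94 and 0.91. The nearest tested neighbour, Zfand4 at 0.0766 Mb, had -0.06. Alox5 stood above all 17, but it was chosen with its difference known, so that nothing about the region is read from this rank.

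**Figure D4:**
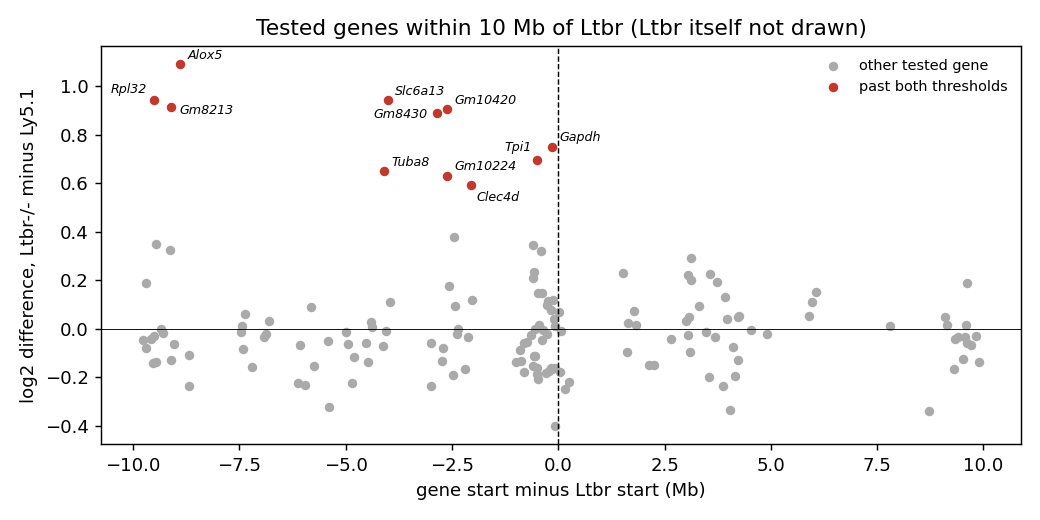
Log2 difference of Ltbr-/- minus Ly5.1 samples for the tested genes within 10 Mb of Ltbr, against the distance of the gene start from that of Ltbr in Mb; genes past both thresholds are red and named. The 11 red points lie left of the dashed line at Ltbr, as do most of the other points, and Alox5, at 1.09, is the highest of the red points.

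Since Alox5 and several of its partners are abundant in mast cells and other myeloid cells, markers of such cells are given beside its difference. In bulk samples, fewer cells of a type and less RNA per cell cannot be told apart. Of 12 mast cell and basophil genes, 8 were tested; the chymase Cma1 rose by 1.32 and the carboxypeptidase Cpa3 by 0.56 (limma, adjusted p = 1.44e-15 and 1.44e-05), while the basophil protease Prss34 fell by 0.41 (limma, adjusted p = 0.0033; 0.0682 without Ltbr-/- replicate 2). The summed signal of the list was 7840 to 8396 in Ltbr-/- and 4373 to 5000.06 in Ly5.1 samples. Cma1 alone made up 5262 to 5795 and 2032 to 2452 of it. The median log2 difference of the 8 tested genes was -0.02, with 3 above 0 and 5 below, so that the list did not rise as a whole. The mast cell genes Tpsb2 and Mrgprb2 stood at 1 in all samples, and Mcpt4 and Tpsab1 were between 4.82 and 5.78.

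Of 8 eosinophil genes, 6 were tested; the eosinophil peroxidase Epx rose by 0.71 (limma, adjusted p = 2.2e-06), Prg2 had 0.20 (limma, adjusted p = 0.156), and the receptors Ccr3 and Il5ra were between 2.54 and 4.07. The sum was 2228 to 2592 against 1897 to 2152. All 12 neutrophil genes were tested, and 9 were lower by the adjusted p, as were 548 of all 13108 tested genes. Examples were Camp at -0.57 and Ltf at -0.50 (limma, adjusted p = 1.41e-07 and 1.56e-06), whereas the transcription factor gene Cebpe rose by 0.84 (limma, adjusted p = 1.06e-08). Of the 9, Prtn3 lost its call without any of 5 of the 6 libraries and Ly6g without any of 4 (limma, adjusted p = 0.0618 to 0.167). The sum of the 12 genes was 44357 to 44984 in Ltbr-/- and 57089.5 to 61718.5 in Ly5.1 samples. Of 12 monocyte and macrophage genes, 9 were tested; Emr1 rose by 0.83 and Lyz2 fell by 0.42 (limma, adjusted p = 5.75e-09 and 8.29e-05), with sums of 6647 to 7363 against 7274 to 7774. The part of these cells in the difference of Alox5 was not tested.

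Among the other lists, 12 of 12 HSC genes were tested and none passed both thresholds; Ly6a fell by 0.39 and Meis1 by 0.23, and Gata2 rose by 0.22 (limma, adjusted p = 0.0016, 0.038 and 0.0402), of which Meis1 and Gata2 lost their calls when any of 5 of the 6 libraries was left out (adjusted p = 0.0587 to 0.158). Their sum was 17952 to 18652 in Ltbr-/- and 19176.5 to 19734 in Ly5.1 samples. Of the platelet and megakaryocyte genes, Itga2b rose by 0.31 and Pf4 fell by 0.33 (limma, adjusted p = 0.000461 and 0.024), but Itga2b did not pass after quantile normalization (adjusted p = 0.904), nor Pf4 without Ltbr-/- replicate 1 or 2 or Ly5.1 replicate 3 (adjusted p = 0.0588 to 0.169). Of the erythroid genes, Hba-a1 and Hba-a2 rose by 0.99 and 0.86 with adjusted p of at most 1.88e-09 in limma. Of the 4 tested B cell genes, Igkc fell by 1.21 and Ighm by 1.04, whereas Cd79a rose by 0.62 (limma, adjusted p = 1.93e-12, 3.96e-11 and 6.87e-06). No tested gene of the T and NK cell list (4 of 8) or of the stroma and endothelium list (5 of 9) passed in limma, and 0 of them had an unadjusted p under 0.05.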

How the data were processed

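RNA of sorted LT/ST-HSCs was sequenced by the authors from stranded mRNA libraries, assembled with SeqMan NGen and quantified with ArrayStar; the labels name DESeq2 and the builds GRCm38 and mm10, and the annotation is not given in the sources used here. The authors deposited a signal for each gene and sample, taken from the values to be 2 to the power of the regularized logarithm, with 26595 values per sample. Of the rows of each of the 75 repeated names, the one with the highest mean was used. The upper 50% of names by mean signal were tested. The log2 signal of 3 against 3 samples was compared in limma 3.58.1 (R 4.3.3; linear model, moderated variance that follows the mean) with Benjamini-Hochberg adjustment; the procedure was tested on simulated data. Cells of different chimeras were pooled for the replicates, and p-values measure the spread between these pools.

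The chosen genes and all lists were selected with earlier results of these data known. Named were the chosen genes, each pathway gene past both thresholds, the gene with the largest difference of each pathway list, up to 2 markers per list, and the 5 nearest profiles of Alox5 and Ptgs1; other named genes were picked after their values were seen. Fam213b and Hbb-b2 were not found by symbol. Positions came from RefSeq (GRCm38.p6; 12709 of 13108 tested names matched), and transcript lengths and shared stretches of read length from GENCODE M21. Alternatives changed the filter, normalization, variance model, repeated symbols, pseudocount, fold threshold, replicate block and replicates.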

Additional observations from a re-analysis of the deposited data

How the results depend on the processing

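Over all tested genes, 364 passed both thresholds (356 higher, 8 lower in Ltbr-/-), 1936 without a fold threshold, 42 at a fold of at least 2, 289 after quantile normalization, and 342 to 407 when single replicates were left out. Of the pathway genes outside the chosen set, 1 (Mgst2) passed under each alternative, except 13 without a fold threshold. Of the chosen genes, Alox5 was the single gene past both thresholds under every alternative, 1 to 1 without single replicates, with log2 differences from 1.03 to 1.15. Mgst2 ranged from 1.02 to 1.12, and Ltbr from -4.53 to -4.43 without single replicates. Quantile normalization moved Alox5ap to 0.08 and Lta4h to -0.13. The replicate numbers were not used as pairs. Correlations of the deviations were 0.03, -0.01 and 0.09 for equal numbers, and not every sample correlated best with its own number. Whether equal numbers share recipient mice is not given, and such correlations cannot show that they do not. With the replicate number as a block, 364 genes, 1 pathway gene and 1 chosen gene passed. Without single libraries, or without the filter on low values, the number of higher eicosanoid genes by the adjusted p was 2 to 6 in place of 8. The cause of these shifts was not tested. The deposited values do not show the read depth, and genes with a mean signal under 14.4 could not be compared.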
